A study of Mus musculus with 12 samples.

Results

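The insulin-like growth factor (IGF) genes followed here are 9 genes listed by name, found at 9 of the 24054 rows of a table of gene counts from primary mouse embryonic fibroblasts (MEFs), connective tissue cells grown from embryos. They are the ligand gene Igf1, the receptor gene Igf1r, the binding protein genes Igfbp2, Igfbp3, Igfbp4, Igfbp5, Igfbp6 and Igfbp7, and the protease gene Pappa. All 9 passed the filter on low counts. The study used polyadenylated RNA of MEFs to ask how loss of Blm, Recql or both changes transcripts relative to wild-type cells. Blm encodes BLM, a RecQ DNA helicase whose human counterpart is lost in Bloom syndrome, and the product of Recql is RECQL1, a related helicase. The 12 libraries carry the labels Blm Recql KO (Blm -/- Recql -/-, called double KO here), Blm KO (Blm -/-), Recql KO (Recql -/-) and WT, with 3 libraries each. Cells of all 4 groups were kept at low oxygen in DMEM with serum, and the labels name no treatment. The labels give neither the strain, the embryonic age nor the altered exons, and leave unsaid whether replicates are separate embryos or cultures. In the 3 KO genotypes, replicates fell on both sides of 100 CPM of summed Y-linked transcripts, so those libraries are not all repeats of 1 RNA sample. The 3 WT libraries were all above it, which does not tell their origin. The p-values cover only the spread among these 12 libraries.

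IGF1 is a secreted growth factor that acts through IGF1R, a receptor tyrosine kinase, to drive growth and survival through the PI3K-AKT-mTOR and MAPK pathways, and it is a main serum-borne mitogen of fibroblasts. IGF-binding proteins (IGFBPs) hold IGFs outside the cell, where they can carry them, keep them from the receptor or place them near it. Proteases such as PAPP-A, the product of Pappa, cut some IGFBPs and so free bound IGF.

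In outline, the libraries labelled Recql KO held less Igf1 and Igfbp2 RNA and more Igfbp7 RNA than WT, with Igf1 at 13.6 ± 2.00 CPM (counts scaled to the library's size), against 38.1 ± 13.3 CPM in WT (SD, n = 3 each). Igfbp7 stood at 778 ± 113 CPM in Recql KO libraries, against 304 ± 73.2 CPM in WT. The Igfbp2 call was lost in 8 of 20 alternative settings. Genes are called where edgeR's quasi-likelihood test gives an adjusted p under 0.05 over all genes tested. Against WT, 3 of the 9 genes passed it in Recql KO libraries, beside 29.9% of all tested genes. None of the 9 passed it in double KO or Blm KO libraries against WT, beside 0.121% and 0.753% of all tested genes. Set against Recql KO libraries, double KO libraries held more Igf1, Igfbp2 and Igfbp3 RNA. Igfbp5 RNA was also higher and Igfbp7 RNA lower there, but these 2 calls were lost in 10 and 11 of 20 alternative settings. The Igfbp3 call was lost in 4 of 20, and the Igf1 and Igfbp2 calls in 1 each. Thus 5 of the 9 genes passed between double KO and Recql KO libraries, beside 24.7% of all tested genes. Igf1r and Igfbp6 passed the test in none of the comparisons made.

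The promoters of the 3 genes called between Recql KO and WT libraries are printed first, since these genes carry the calls against WT. The counts are per gene and do not show which start was used. The windows are RefSeq sequences of build GRCm38.p6, from 250 bases before to 50 bases after an annotated start, 5′ to 3′ on the strand of the gene. Capitals mark matches to 2 of the 5 motifs that were searched on both strands. These are GGGCGG, which is the GC box bound by SP1 factors, and the E-box CACGTG. The others were the TATA box TATAAA, a forkhead core spelled TGTTTAC and the AP-1 site TGACTCA. No matches overlapped in the printed windows. The Igf1 window is chr10:87860861-87861160 (+), the Igfbp2 window chr1:72824230-72824529 (+) and the Igfbp7 window chr5:77407996-77408295 (-). The Igf1 window lies inside the GENCODE span of the gene, which has 7 basic transcripts, and the window of the second annotated Igfbp2 start is not printed.
Igf1: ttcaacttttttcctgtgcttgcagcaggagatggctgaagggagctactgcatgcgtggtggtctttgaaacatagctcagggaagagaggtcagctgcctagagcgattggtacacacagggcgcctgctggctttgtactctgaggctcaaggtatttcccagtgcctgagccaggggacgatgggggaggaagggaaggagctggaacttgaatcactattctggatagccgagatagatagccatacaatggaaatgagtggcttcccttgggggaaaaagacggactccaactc
Igfbp2: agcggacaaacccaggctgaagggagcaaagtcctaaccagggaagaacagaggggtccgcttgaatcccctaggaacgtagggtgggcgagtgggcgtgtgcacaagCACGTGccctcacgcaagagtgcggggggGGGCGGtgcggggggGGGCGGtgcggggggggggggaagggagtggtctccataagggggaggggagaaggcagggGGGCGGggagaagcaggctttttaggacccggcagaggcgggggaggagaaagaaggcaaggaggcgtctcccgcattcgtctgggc
Igfbp7: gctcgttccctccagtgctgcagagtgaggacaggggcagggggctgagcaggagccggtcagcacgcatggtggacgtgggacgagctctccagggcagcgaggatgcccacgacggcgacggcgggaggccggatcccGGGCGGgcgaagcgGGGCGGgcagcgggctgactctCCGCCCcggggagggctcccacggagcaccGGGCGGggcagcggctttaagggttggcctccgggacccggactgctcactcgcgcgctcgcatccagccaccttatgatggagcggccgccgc
The Igf1 window held no match to the 5 motifs and had a GC content of 52.3%, close to the median of 52.7% over the 32851 mouse promoters of the RefSeq table used. The Igfbp2 window held 3 GC boxes and 1 E-box at 67.0% GC, and the Igfbp7 window held 4 GC boxes at 73.3% GC. GGGCGG occurred in 35.7% of all promoters and CACGTG in 7.15%. RefSeq windows were matched for 8 of the 9 genes, 9 windows in all, with 2 for Igfbp2. Of these 9 windows, 3 held GGGCGG, 2 held TATAAA (13.6% of all promoters), 1 held CACGTG and 1 held TGACTCA (5.2%). TGTTTAC was found in 0 of the 9 windows and in 3.65% of all promoters, which says only that these letters are not in these windows.

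The genes lie on 7 chromosomes of GRCm38, the build named mm10 in the submitters' processing notes (GENCODE M21 positions). Igf1 is at chr10:87858265-87937042 (+), Igf1r at chr7:67952827-68233668 (+), Igfbp3 at chr11:7206086-7213923 (-), Igfbp4 at chr11:99041244-99054392 (+), Igfbp6 at chr15:102144362-102149511 (+), Igfbp7 at chr5:77349240-77408041 (-) and Pappa at chr4:65124174-65357509 (+). Igfbp2 (chr1:72824503-72852474, +) and Igfbp5 (chr1:72857932-72874884, -) are neighbours whose 3′ ends face each other 5.46 kb apart. Igf1r lies 12.2 Mb from Blm on chromosome 7.

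Library totals ran from 47758552 to 59296354 expected counts, so that 3 counts were worth 0.0508 to 0.0614 CPM, far below the level of each of the 9 genes. The targeted genes were examined as a check of the labels. Blm stood at 5.50 ± 1.57 CPM in double KO, 4.13 ± 1.32 CPM in Blm KO and 15.6 ± 1.14 CPM in Recql KO libraries, against 20.7 ± 1.85 CPM in WT. Recql stood at 26.3 ± 8.56 CPM in double KO, 22.4 ± 1.49 CPM in Blm KO and 25.2 ± 4.16 CPM in Recql KO libraries, against 27.7 ± 1.86 CPM in WT. Recql RNA was thus not detectably lower in the libraries labelled for its loss, with a log2 fold change of -0.13 ± 0.20 in Recql KO against WT (edgeR adjusted p = 0.642). A gene count need not fall with every altered allele, so Recql KO and double KO stand below as the labels of these libraries, and directions rest on those labels. The 3 Recql KO libraries stood apart from the other 9 on the first principal component, at 80.2 to 86.5 against -59.4 to -7.29, and it held 44.9% of the variance. Summed Y-linked transcripts were above 100 CPM in all 3 WT libraries. Among KO libraries this held only for Blm KO replicate 1, Recql KO replicate 1 and double KO replicate 2. Genotype and this level are thus partly confounded. Recql KO replicate 2 lay between, at 28.7 CPM, where the other libraries below 100 CPM had 0.676 to 6.25 CPM. The source of its level was not tested.

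Defining fibroblast markers were present in every library, at a sum over 8 genes of 29151 to 33365 CPM in double KO, 28629 to 36809 CPM in Blm KO and 12238 to 15719 CPM in Recql KO, against 23871 to 25338 CPM in WT. Beside the Recql KO results below, summed cartilage markers were 80.5 to 96.8 CPM in Recql KO libraries, against 587 to 1378 CPM in WT, with 4 of 5 tested genes lower. Col9a1 and Matn3 were below 1 CPM in every Recql KO library, but not in every WT library, and Matn1 was below 1 CPM in all 12 libraries. Epithelial and mesothelial markers summed to 10.9 to 18.1 CPM in Recql KO, against 37.6 to 120.3 CPM in WT, with 4 of 7 lower. Endothelial markers summed to 3.08 to 4.48 CPM in Recql KO, against 12.2 to 20.2 CPM in WT, with 3 of 5 lower. Skeletal muscle markers summed to 8.76 to 23.1 CPM in Recql KO, against 42.1 to 61.9 CPM in WT (2 of 4 lower), and osteoblast markers to 60.0 to 72.1 CPM in Recql KO, against 86.4 to 93.7 CPM in WT (2 of 5 lower). Macrophage and blood markers summed to 3.95 to 6.18 CPM in Recql KO, against 6.09 to 14.7 CPM in WT (2 of 5 lower), and adipocyte markers to 47.8 to 112 CPM in Recql KO, against 86.3 to 93.5 CPM in WT (1 of 3 lower). Smooth muscle markers summed to 4390 to 6250 CPM in Recql KO, against 4040 to 5467 CPM in WT (1 of 5 lower). Neural markers ran the other way, at 262 to 277 CPM in Recql KO, against 145 to 170 CPM in WT, with 2 of 7 higher. In double KO against Recql KO libraries, cartilage markers summed to 299 to 961 CPM in double KO (4 of 5 higher) and epithelial and mesothelial markers to 67.2 to 100.3 CPM in double KO (4 of 7 higher). Between the same groups, 2 of 5 endothelial, 2 of 4 skeletal muscle, 2 of 5 osteoblast, 1 of 5 macrophage and blood and 1 of 5 smooth muscle markers were higher in double KO. Of 7 neural markers 1 was higher and 1 lower, and 0 of 3 adipocyte markers were called by edgeR (0 at an unadjusted p under 0.05). Of the 8 fibroblast markers, 4 were higher in double KO than in Recql KO, and 1 was higher and 3 lower in Recql KO than in WT. Beside these counts, 14.2% of all tested genes were called higher and 15.6% lower in Recql KO than in WT. In double KO against Recql KO these shares were 13.2% and 11.6%. No test set the marker lists against other genes. The part of these cell types in the IGF gene results was not tested. In bulk RNA, fewer cells of a type and less RNA per cell cannot be told apart.

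Igf1, the ligand, had 71.4, 31.9 and 47.4 CPM in double KO replicates 1 to 3, 47.3, 22.3 and 34.1 CPM in Blm KO, and 15.9, 12.4 and 12.6 CPM in Recql KO, against 30.7, 30.1 and 53.5 CPM in WT. All 3 Recql KO libraries lay below every other library, while the other 3 groups overlapped. Group means ran 50.2 ± 19.9 CPM in double KO, 38.1 ± 13.3 CPM in WT, 34.5 ± 12.5 CPM in Blm KO and 13.6 ± 2.00 CPM in Recql KO, and of neighbours in that order only Blm KO and Recql KO did not overlap. Per kb of exon, Igf1 was the lowest of the 9 genes in each of the 4 genotypes.

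Igf1r, the receptor, varied little. It had 333, 266 and 324 CPM in double KO, 257, 365 and 281 CPM in Blm KO, and 384, 355 and 321 CPM in Recql KO, against 281, 315 and 297 CPM in WT. The Recql KO libraries lay just above the WT ones, and the other groups overlapped. The group means were 308 ± 36.5, 301 ± 56.6 and 353 ± 31.6 CPM in double KO, Blm KO and Recql KO libraries and 298 ± 17.1 CPM in WT. Its counts were not whole in any of the 12 libraries, so some of its reads were shared out with other sequences.

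Igfbp2, which binds IGFs and is abundant in embryonic tissues, had 175, 85.2 and 193 CPM in double KO, 84.5, 232 and 91.3 CPM in Blm KO, and 51.0, 39.1 and 37.8 CPM in Recql KO, against 113, 119 and 82.2 CPM in WT. All 3 Recql KO libraries lay below every other library. Its counts, too, were not whole in all 12 libraries.

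Igfbp3, the main carrier of IGFs in serum, had 163, 71.6 and 94.2 CPM in double KO, 110.3, 35.5 and 57.7 CPM in Blm KO, and 31.8, 30.1 and 46.7 CPM in Recql KO, against 58.0, 51.6 and 69.5 CPM in WT. The double KO libraries lay above WT by a small gap and the Recql KO libraries below it, while Blm KO spanned WT.

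Igfbp4, an inhibitory binding protein and the best known substrate of PAPP-A, had 148, 94.9 and 209 CPM in double KO, 328, 244 and 300.4 CPM in Blm KO, and 38.5, 61.9 and 186 CPM in Recql KO, against 269, 192 and 192 CPM in WT. Recql KO replicate 3 stood far from its 2 partners and close to WT. Every Blm KO library exceeded every double KO library.

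Igfbp5, which binds IGFs and extracellular matrix, had 364, 1527 and 309.6 CPM in double KO, 484, 99.1 and 295 CPM in Blm KO, and 180.3, 118 and 164 CPM in Recql KO, against 214, 483 and 520.5 CPM in WT. Double KO replicate 2 alone set the double KO mean of 733 ± 688 CPM. The Recql KO libraries lay below WT, while Blm KO spanned the Recql KO range and overlapped WT.

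Igfbp6, which prefers IGF2 over IGF1, was nearly flat at 20.2 ± 2.25 CPM in double KO, 19.6 ± 1.81 CPM in Blm KO and 22.7 ± 1.31 CPM in Recql KO, against 22.3 ± 2.53 CPM in WT (SD, n = 3 each). All 4 groups overlapped.

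Igfbp7, a low-affinity relative of the other binding proteins that is secreted into the matrix, had 475, 446 and 457 CPM in double KO, 222, 455 and 286 CPM in Blm KO, and 907, 700 and 726 CPM in Recql KO, against 373, 311 and 227 CPM in WT. All 3 Recql KO libraries lay above every other library. Its exons overlap those of the antisense gene Polr2b by 85 bp, 7.03% of its exon length, and the strand setting of the counting is not given in the sources used here. Polr2b averaged 96.0 CPM in Recql KO libraries, against 113 CPM in WT, with a log2 fold change of -0.24 (edgeR adjusted p = 0.0347). The part of reads from the overlap in the Igfbp7 counts was not tested.

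Pappa had 221, 178 and 306 CPM in double KO, 94.9, 227 and 113 CPM in Blm KO, and 155, 144 and 138 CPM in Recql KO, against 114, 101 and 76.5 CPM in WT. Both double KO and Recql KO libraries lay above WT without overlap, and Blm KO replicate 2 was at the level of double KO.

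**Figure D1:**
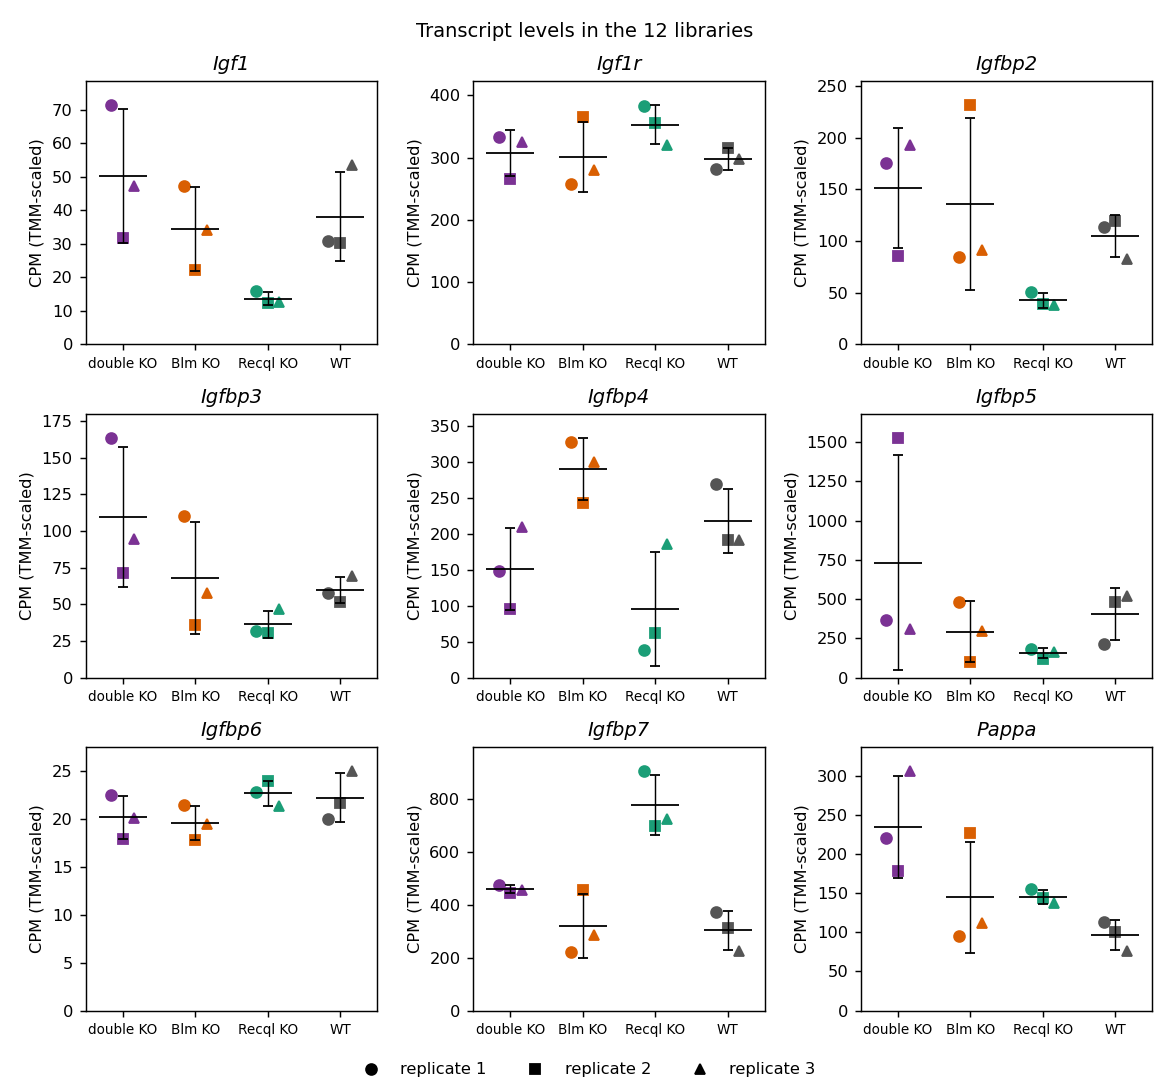
TMM-scaled CPM of each gene (linear y axis from 0, 1 panel per gene) in double KO, Blm KO, Recql KO and WT libraries. Symbols mark replicates and horizontal lines with bars the mean ± SD (n = 3); Recql KO libraries are the lowest group for Igf1 and Igfbp2 and the highest for Igfbp7, and double KO replicate 2 stands at 1527 CPM for Igfbp5.

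Recql KO libraries were compared with WT to see which of these transcripts differ under the Recql label. Igf1 fell by 1.48 ± 0.35 on the log2 scale (SE), 2.80-fold lower, with a 95% interval of -2.25 to -0.71 (edgeR adjusted p = 0.0105). Igfbp2 fell by 1.30 ± 0.40, 2.46-fold lower (edgeR adjusted p = 0.0335). Igfbp7 rose by 1.36 ± 0.25, 2.56-fold higher, with an interval of 0.81 to 1.90 (edgeR adjusted p = 0.00335). Thus 3 of 9 genes were called, 1 higher and 2 lower, beside 29.9% of all 14876 tested genes (14.2% higher and 15.6% lower), so the share of called genes was near the background. Without Recql KO replicate 1 or 2, that background was 19.1% or 17.9%, and 2 of the 9 genes were called each time.

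Of the other genes, Igfbp4 had a log2 fold change of -1.19 ± 0.49 (edgeR adjusted p = 0.0913). Its value rested on Recql KO replicate 3: without it the change was -2.11 (edgeR adjusted p = 0.00385), and without replicate 1 it was -0.80 (edgeR adjusted p = 0.229). Igfbp5 had -1.40 ± 0.67, Igfbp3 -0.72 ± 0.40, Pappa 0.58 ± 0.30 and Igf1r 0.24 ± 0.13, with edgeR adjusted p-values of 0.142, 0.193, 0.17 and 0.193. Igfbp6 had 0.03 with a 95% interval of -0.22 to 0.28. The groups did not overlap for 8 of the 9 genes, all but Igfbp6, and for 49.3% of all tested genes. The median log2 fold change was -0.72 over the 9 genes, which is the value of Igfbp3, and -0.01 over all tested genes. Of the 9 values 4 were above 0 and 5 below, beside 7240 and 7636 of all 14876 tested genes.

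Of the 20 alternative settings, 19 keep at least 2 libraries per group, and the calls of Igfbp7 and Igf1 were kept in all 19. The other setting compares 1 Recql KO library with 3 WT libraries, those high in Y-linked transcripts, and cannot show stability, since the lone library is assumed to vary like the others. There Igf1 had -1.26 (edgeR adjusted p = 0.124) and Igfbp7 1.58 (edgeR adjusted p = 0.0303). Igfbp2 was the least stable call, lost in 8 of 20. These include leaving out Recql KO replicate 1, 2 or 3 or WT replicate 1 or 2, with edgeR adjusted p-values of up to 0.102 when 1 library was left out, and the fit on libraries high in Y-linked transcripts (-1.04, edgeR adjusted p = 0.0586), which called 7.39% of all genes.

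Double KO libraries were compared with the same WT libraries to ask about the joint loss. 0 of 9 genes passed edgeR's test, beside 0.121% of all tested genes, and 3 of 9 had an unadjusted p under 0.05, beside 10.8% of all. DESeq2 called 1 of 9, Pappa, beside 2.27% of all tested genes. Pappa had the highest value, a log2 fold change of 1.28 ± 0.31 or 2.42-fold (edgeR adjusted p = 0.143), and it was higher in 3 of 3 double KO libraries than in any WT library. Its adjusted p was 0.00237 in DESeq2, and 0.0452 in edgeR without Blm KO replicate 2, a library that enters this comparison only through the shared spread. Igfbp3 had 0.88 ± 0.40 (edgeR adjusted p = 0.462) and Igfbp7 0.60 ± 0.25 (edgeR adjusted p = 0.423), again with no overlap between the groups. The groups did not overlap for 3 of the 9 genes and for 14.1% of all tested genes.

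Igfbp5 had a log2 fold change of 0.85 ± 0.67 between double KO and WT libraries, and -0.27 without double KO replicate 2, so its sign was set by 1 library. Igfbp2 had 0.53, Igf1 0.40, Igf1r 0.05, Igfbp6 -0.14 and Igfbp4 -0.53, with edgeR adjusted p-values from 0.687 to 0.932. The 95% interval of Igf1r was -0.25 to 0.34.

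Blm KO libraries were set against WT in the same way. 0 of 9 genes passed edgeR's test, beside 0.753% of all tested genes, and 0 of 9 had an unadjusted p under 0.05, beside 18.9% of all. DESeq2 called 0 of 9, beside 6.51% of all tested genes. The background share in edgeR ran from 0.206% without WT replicate 2 to 3.8% without double KO replicate 2, with 0 of 9 called each time. Pappa had the highest value, 0.58 ± 0.30 on the log2 scale (edgeR adjusted p = 0.329), and Igfbp5 the lowest, -0.47 ± 0.66 (edgeR adjusted p = 0.729). The groups overlapped for all 9 genes, while they did not overlap for 24.8% of all tested genes. Blm KO replicate 2 widened the spread: it was the lowest of its group for Igf1, Igfbp3, Igfbp4, Igfbp5 and Igfbp6 and the highest for Igf1r, Igfbp2, Igfbp7 and Pappa.

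**Figure D2:**
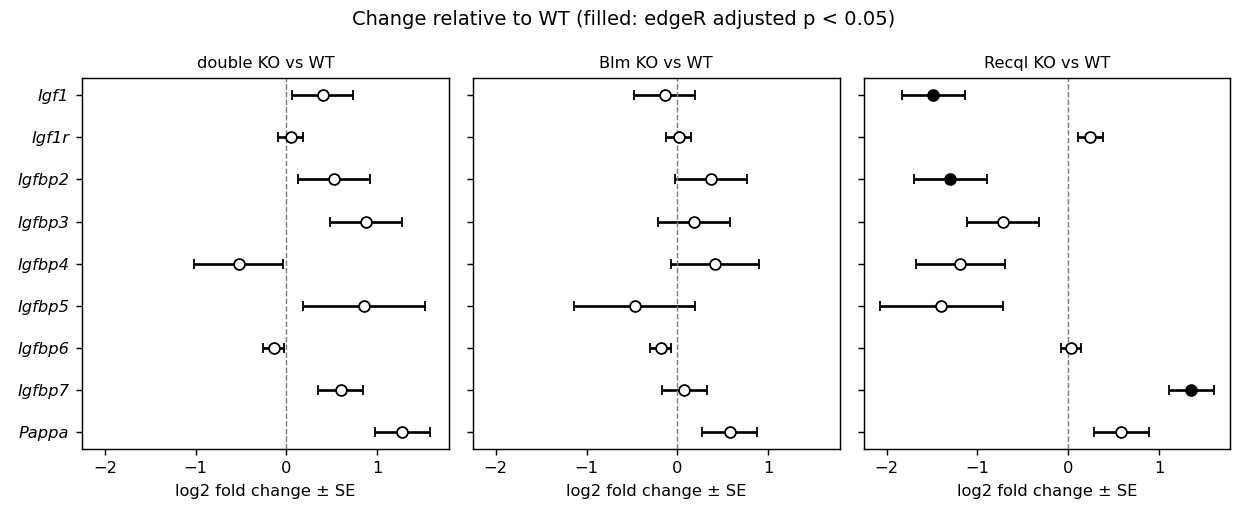
Log2 fold change against WT (x axis, bars ± SE) of each gene in double KO, Blm KO and Recql KO libraries, with filled points for an edgeR adjusted p under 0.05. Filled points are Igf1 (-1.48), Igfbp2 (-1.30) and Igfbp7 (1.36) in Recql KO; the 3 comparisons share the WT libraries.

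Double KO libraries were next set against each single KO. Against Recql KO, Igf1 rose by 1.88 ± 0.35 on the log2 scale, 3.69-fold (edgeR adjusted p = 0.00434). Igfbp2 rose by 1.82 ± 0.41, 3.54-fold (edgeR adjusted p = 0.00961), and Igfbp3 by 1.60 ± 0.40, 3.03-fold (edgeR adjusted p = 0.0167). Igfbp5 rose by 2.25 ± 0.69, 4.75-fold (edgeR adjusted p = 0.0379), but the value was 1.12 without double KO replicate 2 (edgeR adjusted p = 0.173). Igfbp7 fell by 0.76 ± 0.25, 1.69-fold lower (edgeR adjusted p = 0.0454). These 5 of 9 genes, 4 higher and 1 lower, stand beside 24.7% of all tested genes, of which 13.2% were higher and 11.6% lower. The Recql KO libraries enter both this comparison and that with WT, so the 2 are not independent.

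That number moved with single libraries, as did the share of all genes called. It was 2 without Recql KO replicate 1 or 2 (14.9% and 14.3% of all genes). It was 3 without double KO replicate 1 or 2 (20.4% and 23.4%), Blm KO replicate 3 (20.8%) or WT replicate 2 (23.2%). Among libraries high in Y-linked transcripts, 1 double KO against 1 Recql KO, 0 of 9 were called by edgeR, beside 2.44% of all genes, with Igf1 at 0.99 (edgeR adjusted p = 0.31) and Igfbp2 at 0.73 (edgeR adjusted p = 0.226). Over the 19 settings with at least 2 libraries per group, Igf1 and Igfbp2 kept their calls in 19, Igfbp3 in 16, Igfbp5 in 10 and Igfbp7 in 9. Pappa had 0.69 ± 0.30 (edgeR adjusted p = 0.121), Igfbp4 0.66 ± 0.49 (edgeR adjusted p = 0.348), Igf1r -0.20 ± 0.13 (edgeR adjusted p = 0.305) and Igfbp6 -0.17 ± 0.11 (edgeR adjusted p = 0.293). The groups did not overlap for 6 of the 9 genes, beside 43.6% of all tested genes. The part of the marker lists that also differ between double KO and Recql KO libraries was not tested.

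Against Blm KO, 0 of 9 genes passed edgeR's test in double KO libraries, beside 1.96% of all tested genes. 1 of 9, Pappa, had an unadjusted p under 0.05, beside 23.3% of all. DESeq2 called 0 of 9, beside 9.51% of all tested genes. Igfbp4 was the 1 gene whose groups did not overlap, beside 26.2% of all tested genes, with a log2 fold change of -0.95 ± 0.49 (edgeR adjusted p = 0.267). Pappa had 0.70 ± 0.30 (edgeR adjusted p = 0.2). Without Blm KO replicate 2, Pappa and Igfbp7 passed, at 1.18 (edgeR adjusted p = 0.0275) and 0.86 (edgeR adjusted p = 0.046). The background share was then 3.88%, and it was 0.0597% without Blm KO replicate 3.

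**Figure D3:**
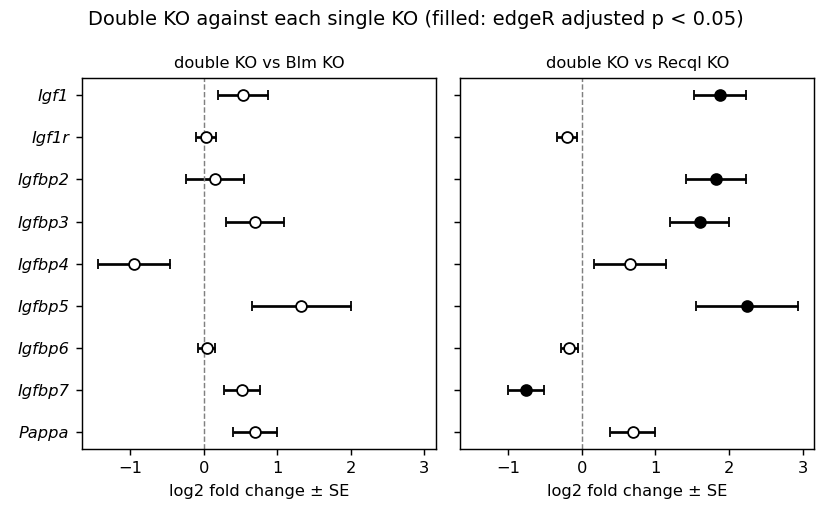
Log2 fold change (x axis, bars ± SE) of each gene in double KO against Blm KO libraries (left) and against Recql KO libraries (right), with filled points for an edgeR adjusted p under 0.05. Against Recql KO, Igf1, Igfbp2, Igfbp3 and Igfbp5 are filled above 0 and Igfbp7 is filled at -0.76; against Blm KO none is filled.

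The interaction asks whether the step from a single to a double label differs from the step away from WT: it is double KO minus Blm KO, less the quantity Recql KO minus WT. For Igf1 it was 2.02 ± 0.49 on the log2 scale (edgeR adjusted p = 0.0283): the difference was 0.54 ± 0.34 between double KO and Blm KO libraries and -1.48 ± 0.35 between Recql KO and WT libraries. It was the 1 of 9 genes called, beside 10.4% of all tested genes. The call was lost in 8 of 18 settings, including without Blm KO replicate 2 or 3, any Recql KO replicate or WT replicate 3, with values of 1.67 to 2.32 and edgeR adjusted p-values up to 0.0747 when 1 library was left out. Without Blm KO replicate 3 the background share was 3.64%. Igfbp5 had 2.72 ± 0.95 (edgeR adjusted p = 0.0935), Igfbp2 1.45 ± 0.56 (edgeR adjusted p = 0.121), Igfbp3 1.41 ± 0.56 (edgeR adjusted p = 0.13) and Igfbp7 -0.84 ± 0.35 (edgeR adjusted p = 0.144). DESeq2 called 4 of the 9 genes, Igf1, Igfbp2, Igfbp3 and Igfbp5, beside 17.6% of all tested genes.

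The make-up of the IGFBP transcripts was then compared on a scale that allows levels of different genes to be set side by side, CPM per kb of merged exons. The 6 Igfbp genes summed to 697 ± 42.6 CPM per kb in double KO, 521 ± 104 in Blm KO and 754 ± 93.0 in Recql KO libraries, against 485 ± 53.9 in WT (SD, n = 3 each). Igfbp7 was the highest of the 9 genes per kb in all 4 genotypes, at 380, 265 and 643 CPM per kb in double KO, Blm KO and Recql KO libraries and 251 CPM per kb in WT. Igfbp7 made up 87.7%, 86.1% and 81.7% of the sum in the 3 Recql KO libraries, against 58.6%, 51.0% and 44.3% in WT. In double KO it made up 57.5%, 49.6% and 57.0%, and in Blm KO 39.9%, 58.7% and 51.4%. The lowest Recql KO share lay above the highest share of the other groups.

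The shares of the other 5 genes were correspondingly smaller in Recql KO libraries. Igfbp2 held 3.86 ± 0.30% in Recql KO, against 14.7 ± 1.47% in WT, and Igfbp5 3.39 ± 0.41% in Recql KO, against 14.4 ± 6.96% in WT. Igfbp4 held 3.32 ± 2.78% in Recql KO, against 11.4 ± 1.67% in WT. Shares of 1 sum are tied, so a larger Igfbp7 share alone lowers the rest. Igfbp6, flat in CPM, held 2.74 ± 0.42% in Recql KO, against 4.20 ± 0.98% in WT. In double KO libraries Igfbp4 held 5.60 ± 2.40%, against 14.8 ± 4.51% in Blm KO and 11.4 ± 1.67% in WT. A two-sided exact permutation test of 3 against 3 libraries cannot go below p = 0.1, and this smallest value was reached by all 6 shares and the sum for Recql KO against WT. It was also reached by the shares of Igfbp4 and Igfbp6 and the sum for double KO against WT, by the Igfbp4 share and the sum for double KO against Blm KO, and by the shares of Igfbp2, Igfbp3, Igfbp5 and Igfbp7 for double KO against Recql KO. Over the 35 tests of this kind the adjusted exact permutation p of these was 0.219, so none passed.

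**Figure D4:**
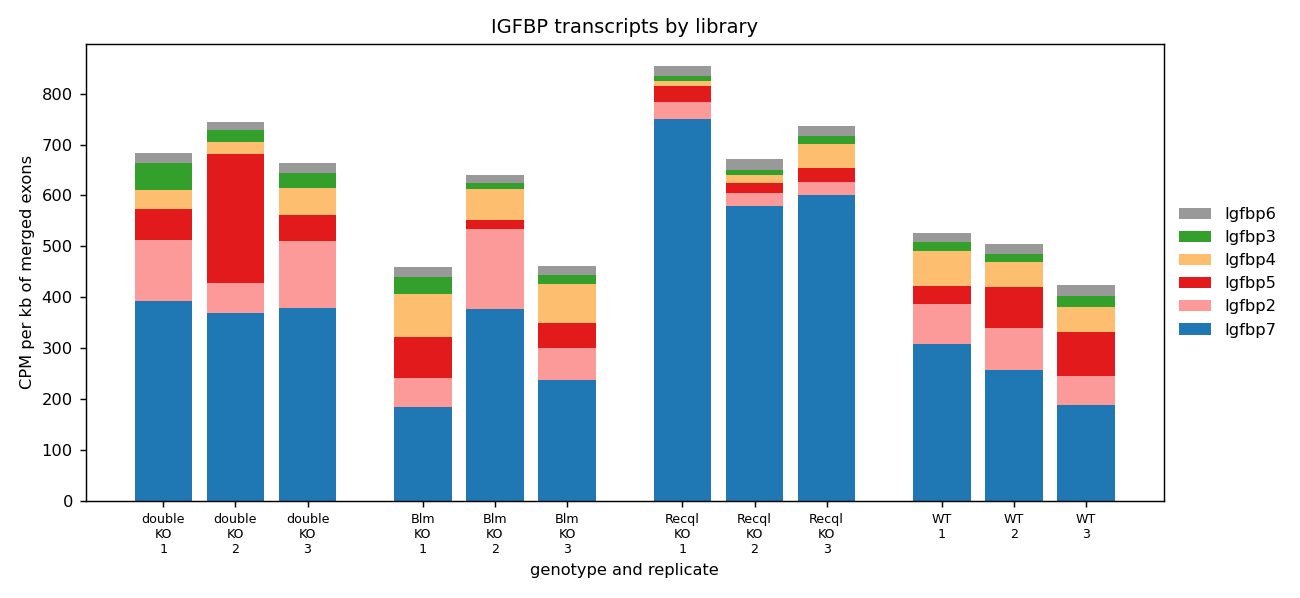
CPM per kb of merged exons (linear y axis from 0) of the 6 Igfbp genes, stacked for each of the 12 libraries, in order double KO, Blm KO, Recql KO and WT. The Igfbp7 part is 81.7% to 87.7% of the bar in Recql KO libraries and 44.3% to 58.6% in WT libraries; the large Igfbp5 part of double KO replicate 2 is the 1527 CPM library.

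Most of the 9 genes varied more between libraries of 1 genotype than the typical gene. The pooled coefficient of variation (CV, root mean square over the 4 genotypes) was 0.617 for Igfbp5, 0.475 for Igfbp4, 0.386 for Igfbp3, 0.383 for Igfbp2, 0.329 for Igf1, 0.301 for Pappa and 0.235 for Igfbp7, against a median of 0.129 over all tested genes. Among the 1000 genes nearest in level, these 7 lay at the 93.1st to 99.7th percentile. Igf1r (0.123) and Igfbp6 (0.0965) did not stand apart, at percentiles 72.8 and 45. Double KO replicate 2 was the lowest of its group for 8 of the 9 genes and the highest for Igfbp5.

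**Figure D5:**
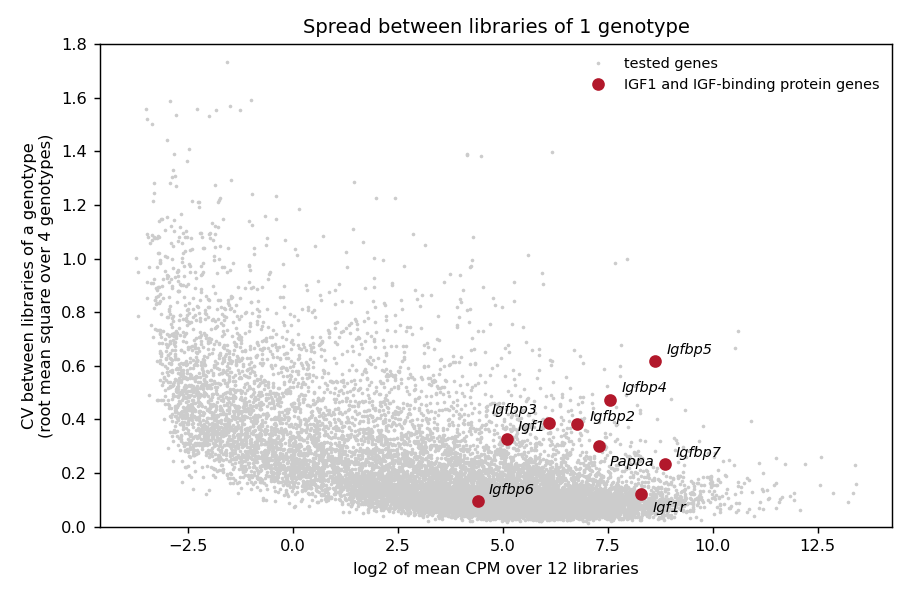
CV between libraries of a genotype (y axis, root mean square over 4 genotypes) against log2 mean CPM (x axis) for all tested genes (grey) and the 9 IGF genes (red). Igfbp5 has the highest CV of the 9 (0.617) and Igfbp6 the lowest (0.0965), where the median of all tested genes is 0.129.

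The other genes of the pathway were followed in 4 lists of 69 genes, of which 63 were tested. Against WT, Recql KO libraries had 25 of 63 called, 11 higher and 14 lower, beside the 29.9% of all tested genes, and between 17 and 31 when 1 library was left out. No test set the lists against other genes. Among extracellular partners, Igf2, the second IGF ligand and an imprinted gene, had 67.7, 48.6 and 34.4 CPM in Recql KO libraries, against 1545, 1023 and 4077 CPM in WT, a log2 fold change of -5.46 (edgeR adjusted p = 0.00423). It varied widely elsewhere too, with 3924, 799 and 1723 CPM in double KO and 3679, 208 and 1587 CPM in Blm KO. Pappa2, a protease related to Pappa, fell by 2.04 (edgeR adjusted p = 0.019), and Pcsk6, a proprotein convertase, by 1.95 (edgeR adjusted p = 0.00903). The Pappa2 call was lost in 5 of 20 settings, including without Recql KO replicate 1, 2 or 3 or WT replicate 1, with edgeR adjusted p-values up to 0.0714 when 1 library was left out. Stc1, a stanniocalcin, rose by 1.15 (edgeR adjusted p = 0.0262); stanniocalcins inhibit PAPP-A. The Stc1 call was lost in 4 of 20 settings, including without Recql KO replicate 3 or WT replicate 1 or 3, with edgeR adjusted p-values up to 0.0907 when 1 library was left out. Igfbp1, a mainly hepatic binding protein, and Igfals, the serum complex subunit, were nearly absent and not tested.

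Among receptors and adaptors, 10 of 20 were called, 4 higher and 6 lower, beside 29.9% of all tested genes. Grb14, an adaptor that restrains insulin receptor signalling, rose by 1.94 (edgeR adjusted p = 0.000562), and Grb10, an imprinted adaptor that restrains IGF1R and insulin receptor signalling, fell by 0.97 (edgeR adjusted p = 0.00256). Lrp1, an endocytic receptor, rose by 0.92 (edgeR adjusted p = 0.000937) and Sh2b2, an adaptor, by 1.49 (edgeR adjusted p = 0.000733). In the PI3K, AKT and mTOR core 7 of 21 were called, near the share of all tested genes. Those named changed by under 1 on the log2 scale: Pik3r1 had 0.58, Mtor 0.47, Rptor 0.31 and Akt2 -0.34. The Akt2 call was lost without Recql KO replicate 1 or WT replicate 3. Of 14 FOXO target genes 4 were called, 2 in each direction, again near the share of all tested genes. Txnip, a thioredoxin-binding protein, had 0.84 (edgeR adjusted p = 0.000325) and Sesn1, a sestrin, had -0.72 (edgeR adjusted p = 0.00404).

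Double KO libraries against Recql KO had 24 of 63 pathway genes called, 13 higher and 11 lower, beside 24.7% of all. Igf2 had a log2 fold change of 5.42 (edgeR adjusted p = 0.00503), Pappa2 3.49 (edgeR adjusted p = 0.00234) and Grb14 -1.82 (edgeR adjusted p = 0.000765). Double KO and Blm KO libraries against WT each had 1 of 63 called, beside 0.121% and 0.753% of all tested genes. Txnip was the gene called in both, at 0.68 (edgeR adjusted p = 0.0166) and 0.60 (edgeR adjusted p = 0.018). It stood at 200.2 ± 15.5 CPM in double KO, 189 ± 22.5 CPM in Blm KO and 224 ± 3.68 CPM in Recql KO libraries, against 125 ± 5.97 CPM in WT. The Txnip call was lost in 7 of 20 settings for double KO, including without double KO replicate 1 or 2 or any WT replicate, and in 5 of 20 for Blm KO, including without Blm KO replicate 3 or WT replicate 1 or 2. Double KO against Blm KO had 2 of 63 called, beside 1.96% of all tested genes. They were Foxo1, a transcription factor that AKT inactivates, at -0.93 (edgeR adjusted p = 0.0306) and Shc1, a receptor adaptor, at -0.51 (edgeR adjusted p = 0.0426). The Foxo1 call was lost in 6 of 20 settings, including without double KO replicate 2 or 3 or Blm KO replicate 1 or 3. The Shc1 call was lost in 11 of 20, 9 of them leaving out 1 library, and was kept when double KO replicate 3, Blm KO replicate 2 or WT replicate 3 was left out.

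The genes whose pattern over the 12 libraries was nearest to each member were found among 12015 genes by the root mean square (RMS) difference of centred log2 CPM. For Igf1 they were Ldb2 (0.271) and Camk4 (0.3), beside an RMS of 0.785 for Igf1 around its own mean. Igfbp7 was nearest to Sh3kbp1 (0.216) and Ero1l (0.232), with an own RMS of 0.62, and Igfbp2 to Lmcd1 (0.229) and Itga1 (0.306), with 0.814. Igfbp4 was nearest to Robo2 (0.237, own RMS 0.906), Igfbp3 to Piezo2 (0.282, own RMS 0.706), Pappa to Cdh10 (0.291, own RMS 0.563) and Igfbp5 to Fhod3 (0.455, own RMS 1.04). Igf1r was nearest to Wipi1 (0.0561, own RMS 0.176) and Igfbp6 to Rcbtb1 (0.0901, own RMS 0.146). These distances describe 12 libraries that share 4 genotypes.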

How the data were processed

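Polyadenylated RNA of primary MEFs was sequenced from libraries made with a stranded mRNA kit, per the labels' protocols. Bowtie2 2.1.0, RSEM 1.2.15 and the build mm10 are named in the submitters' processing notes. The authors' deposited values are expected counts, RSEM's estimates for each gene, of which 17.4% to 20.2% per library were not whole because reads fitting several sequences are shared out. The sources used here give no annotation version and no strand setting for the counting.

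Expected counts were rounded and fitted in R 4.3.3 with edgeR 4.0.16: filterByExpr by group kept 14876 genes with 99.99% of the counts, TMM factors were 0.96 to 1.03, and 1 mean per genotype was fitted over 12 libraries (8 residual degrees of freedom, common biological coefficient of variation 0.209). Differences were tested with the robust quasi-likelihood F test, Benjamini-Hochberg adjusted over all tested genes, and called at an adjusted p under 0.05. CPM are TMM-scaled, log2 fold changes carry the model's SE, and intervals are at 95%. The steps were tested on simulated counts. Levels per kb used GENCODE M21 merged exons, matched by gene symbol. Promoter sequences came from RefSeq.

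The named genes are the 9 members, up to 4 called genes per pathway list and comparison by smallest adjusted p, the 2 genes nearest in pattern to each member (at least 1 CPM on average), and Blm and Recql. Polr2b was added after its values were seen because its exons overlap those of Igfbp7, and not every gene the rule gives is printed. The members and lists were chosen with earlier results of these data known.

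Alternatives were RLE scaling, no filter on low counts, CPM above 1 in 3 libraries, DESeq2 1.42.0, the compared groups only, the replicate number as a block, a covariate for the Y-linked level, libraries high in Y-linked transcripts only (above 100 CPM) and leaving out each library. Longest-transcript lengths were added after seeing the data. Every pair of libraries within a genotype differed by more than counting noise.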

Additional observations from a re-analysis of the deposited data

Results flagged for a closer look

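The interaction of Igf1 was set apart by the test of the difference between contrasts: its log2 difference between double KO and Blm KO libraries exceeded that between Recql KO and WT libraries by 2.02 ± 0.49 (edgeR adjusted p = 0.0283). Igf1 was the 1 of 9 genes called, beside 10.4% of all tested genes, and the call was lost in 8 of 18 settings. Igf1 was higher in double KO than in Recql KO in 3 of 3 libraries, and lower in Recql KO than in WT in 3 of 3. The groups of these comparisons, which share the Recql KO libraries, did not overlap for 43.6% and 49.3% of all tested genes. Groups of 3 libraries are too small to test single libraries as outliers.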

How the results depend on the processing

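Of the 1062 values of the 9 genes under the alternatives, 946 kept their direction and side of the threshold, 44 lost a call, 20 gained one and 52 changed sign; the cause was not tested. Numbers of the 9 genes called moved as follows. Double KO against Recql KO had 5 called, but 3 with no filter on low counts, 3 with the replicate block and 0 among libraries high in Y-linked transcripts, beside 15.8%, 26.2% and 2.44% of all genes. The interaction had 1, but 0 with no filter (5.85%), 4 in DESeq2 (17.6%) and 0 with the Y-linked covariate (5.76%). Double KO against WT had 0, but 1 in DESeq2 (2.27%). Recql KO against WT had 3, but 6 with the compared groups only (31.8%), 4 with the Y-linked covariate (23.9%) and 2 with no filter (19.0%). The genes called changed as well. Igfbp3, Igfbp5 and Pappa were gained with the compared groups only, and Igfbp4 with the Y-linked covariate. With no filter Igfbp2 was lost, and with the replicate block Igfbp4 was gained and Igfbp2 lost. Of the 63 pathway genes, Blm KO against WT had 1 called. It had 5 in DESeq2 and 0 with the compared groups only, beside 6.51% and 0.978% of all genes. Double KO against WT had 1, but 2 and 0 in the same settings, beside 2.27% and 0% of all genes. Double KO against Blm KO had 2, but 5 and 0 in these settings, beside 9.51% and 0.0559% of all genes. With the replicate block it had 4, beside 5.12%. Among libraries high in Y-linked transcripts, fewer pathway genes were called for Recql KO against WT and for double KO against Recql KO. Each KO group then held 1 library, and the cause of the fewer calls was not tested. Over all genes DESeq2 called 338, edgeR 18, for double KO against WT; 968, edgeR 112, for Blm KO against WT; 1415, edgeR 291, for double KO against Blm KO; and 2625, edgeR 1554, for the interaction.

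With 1 library left out, the number of the 9 genes called ran from 2 to 6 for double KO against Recql KO, 0 to 2 for the interaction, 0 to 1 for double KO against WT, 0 to 2 for double KO against Blm KO and 2 to 4 for Recql KO against WT. The share of all tested genes called moved too. In the same order it ran from 14.3% to 25.7%, 3.64% to 12.2%, 0.053% to 0.186%, 0.0597% to 3.88% and 17.9% to 32.9%. For Blm KO against WT it ran from 0.206% to 3.8%. Pathway genes called ran from 0 to 4 for Blm KO against WT, 0 to 1 for double KO against WT, 0 to 3 for double KO against Blm KO and 10 to 28 for double KO against Recql KO. Signs of uncalled log2 values turned within these ranges. For Blm KO against WT they were -0.44 to 0.19 (Igf1), -0.15 to 0.11 (Igf1r), -0.26 to 0.61 (Igfbp2), -0.36 to 0.50 (Igfbp3) and -0.26 to 0.28 (Igfbp7). For double KO against WT they were -0.018 to 0.14 (Igf1r) and -0.27 to 1.21 (Igfbp5), and for Recql KO against WT -0.035 to 0.13 (Igfbp6). For double KO against Blm KO they were -0.065 to 0.20 (Igf1r), -0.088 to 0.78 (Igfbp2) and -0.046 to 0.12 (Igfbp6). For the interaction they were -0.15 to 1.16 (Igfbp4), -0.092 to 0.087 (Igfbp6) and -0.12 to 0.59 (Pappa).

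Signs of uncalled values also turned in the Y-linked fits. With the covariate, Blm KO against WT had -0.091 (Igf1r), -0.069 (Igfbp2), -0.039 (Igfbp4), 0.18 (Igfbp5) and -0.067 (Igfbp7), double KO against WT had -0.048 (Igf1r), and the interaction of Igfbp6 was -0.0014. Among libraries high in Y-linked transcripts, Blm KO against WT had 0.32 (Igf1), -0.21 (Igf1r), -0.30 (Igfbp2), 0.26 (Igfbp5), -0.45 (Igfbp7) and -0.022 (Pappa). Double KO against WT had -0.27 (Igf1), -0.17 (Igf1r) and -0.31 (Igfbp2), and double KO against Blm KO -0.59 (Igf1), -0.0060 (Igfbp2), -0.64 (Igfbp3) and -0.27 (Igfbp6). Groups then held 1 library each beside the 3 of WT, and a lone library is assumed to vary like WT.

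No pairing by replicate number was seen. Over 18 pairs of equal number the correlation of deviations ran from -0.206 to 0.204, and 4 exceeded 0.1. Over pairs of unequal number it ran from -0.3 to 0.215. Groups of 3 libraries cannot show that pairing is absent. With the replicate block Igfbp2 in Recql KO against WT had -1.29 (edgeR adjusted p = 0.0532) and Igfbp4 -1.39 (edgeR adjusted p = 0.0453). The Igfbp2 share in Recql KO was 4.25% with longest-transcript lengths.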
